A study of Mus musculus with 48 samples.

Results

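Of 20171 genes measured in mouse embryonic stem cells, 41 gave RNA that was both recovered with HA-tagged Tnrc6a and more abundant in lysates of cells labelled Upf1 knockout. The members were chosen by the measured values themselves. Abundance was the mean over 6 libraries of log2(CPM + 1), where CPM is a gene's read count scaled to counts per 1000000 of its library. A gene was called bound when its log2 ratio of immunoprecipitate (IP) to input in HA-Tnrc6a cells exceeded that in untagged cells by at least 1.5, and raised when its log2 input level in Upf1 knockout cells exceeded that in HA-Tnrc6a cells by at least 0.7.

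The cells were labelled GFP_5xT71BS, mES of strain 129S6/SvEvTac with yGlob and a stably transfected FLAG-Cas9::T2A::Blasticidin, and all groups shared this background. The 4 genotypes were these untagged cells, cells carrying HA-AVI-Tnrc6a, and tagged cells that were also Ago2-/- or Upf1-/-. The labels record no treatment and do not say how many clones stood behind each genotype. Cleared lysates (inputs) and RNA recovered on HA beads from equal amounts of lysate protein (IPs) were sequenced, with 6 libraries in each of 8 groups. Labels placed the libraries in experiments 3 and 4, and columns 1 to 3 and 4 to 6 of the count table were taken as these experiments, which is inferred from the numbering.

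Tnrc6a is a GW182 protein, the scaffold that Argonaute proteins bring to microRNA targets, where it recruits deadenylases that shorten the poly(A) tail and so silence the mRNA. Upf1 is the RNA helicase at the centre of nonsense-mediated decay, which removes mRNAs with premature stop codons and also a range of normal mRNAs, among them those of stress response regulators. In embryonic stem cells microRNAs restrain many regulators of the cell cycle and of differentiation.

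Input libraries held 15383953 to 19595405 counts in columns 1 to 3 and 26458831 to 37179105 in columns 4 to 6, and IPs held 11471544 to 18344233 and 25724085 to 73845953. Naive pluripotency markers were abundant in the inputs of every genotype. Ago2 mRNA was lower in the Ago2 knockout inputs (101 to 149 CPM) than in the HA-Tnrc6a inputs (220 to 360 CPM). Inputs labelled Upf1 knockout held more Upf1 mRNA (140 to 161 CPM) than HA-Tnrc6a inputs (83.2 to 111 CPM). Counts of Upf1 itself thus do not check that label, and Upf1 knockout below means the libraries so labelled. One HA-Tnrc6a input, number 3, stood apart with 3.59% of its counts on ribosomal RNA genes, against at most 0.776% in any other input. The rule uses this library, and without it 36 genes met the rule, 34 of them members. Summed endoderm markers were lowest in Ago2 knockout inputs, at 10.1 to 12.95 CPM, against 48.6 to 60.5 CPM in HA-Tnrc6a, 17.9 to 80.9 CPM in Upf1 knockout and 17.6 to 58.6 CPM in untagged inputs, and their part in the results was not tested.

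The overlap of the 2 criteria was no larger than their separate frequencies. Of 1366 bound genes, 41 were raised (3%), against 3.17% of all genes and 3.18% of the 18805 genes that were not bound. The members were 6.42% of the 639 raised genes, while bound genes made up 6.77% of the table. By these counts the raised share was no higher among bound genes than among the others. Both criteria subtract the same HA-Tnrc6a inputs, so noise in those inputs links them. Genes of low abundance are counted too, and the constant added to CPM shrinks both values there. The shares are therefore a description, and whether binding and the input difference are related was not tested.

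**Figure D1:**
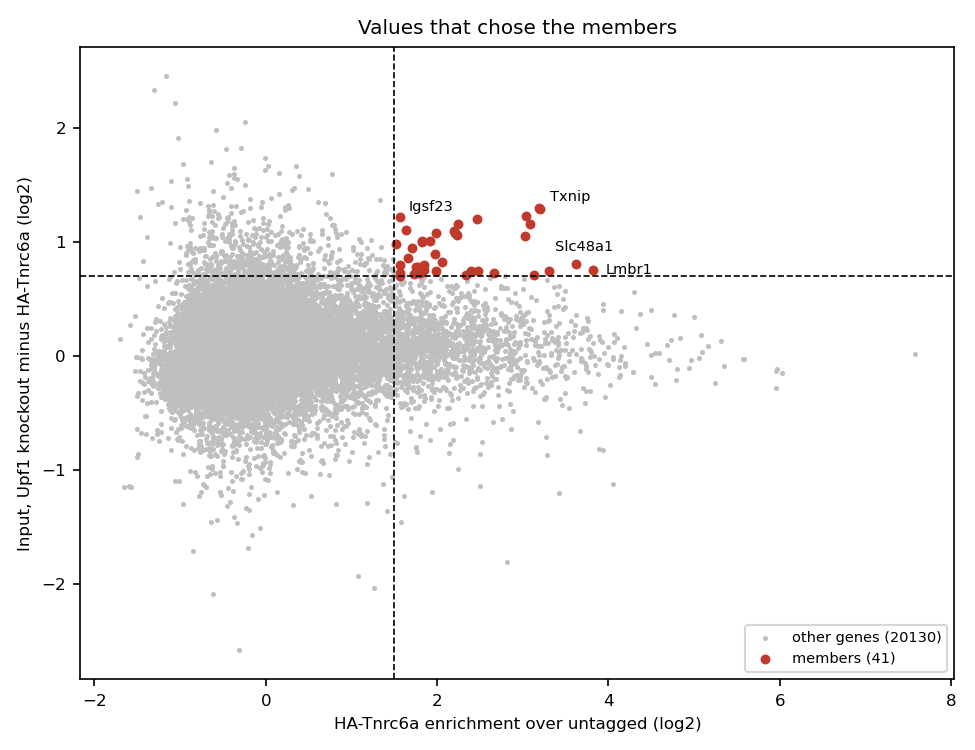
Each point is 1 gene, with enrichment in HA-Tnrc6a over untagged cells on the x axis and the input difference between Upf1 knockout and HA-Tnrc6a cells on the y axis, both in log2 units; dashed lines are the thresholds of 1.5 and 0.7. The 41 members (red) lie in the upper right, and bound genes as a whole are centred near 0 on the y axis.

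The fitted input difference was called higher for 41 of 41 members (29.5% of all genes; 29% were lower), and enrichment for 41 of 41 (29.8%; 32.2% were lower), both of which follow from the choice of members. Among the members, enrichment ran from 1.52 to 3.82 with a median of 1.99 (log2), and the input difference from 0.70 to 1.30 with a median of 0.82. The medians of all genes were -0.16 and 0.01. At the edge of the input threshold, Rhov (0.70), Rdh13 (0.71) and Nhlrc3 (0.71) were just inside, and Adcy1, Fam168a and Sfxn5 (0.70, 0.70 and 0.69) just outside. At the edge of the enrichment threshold, Ubash3a (1.52), Tbc1d22a (1.56) and Igsf23 (1.57) were inside, and Dnajb2, Atg12 and Pkd2l2 (all 1.49) outside. Of the 41 members, 32 met both criteria in columns 1 to 3 alone, 25 in columns 4 to 6 alone, and 18 in both.

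RefSeq (GRCm38.p6) listed 38 of the members as protein-coding, 1 as a long noncoding RNA (Gm15441) and 1 as a pseudogene (Ak3l2-ps), and Dnah2os had no entry. They were spread over 17 chromosomes, with at most 6 on one. Members had a median transcript length of 3707 bases, against 4911 for the 1325 genes that were bound but not raised and 3410 for the 598 that were raised but not bound. Of the 40 members with an annotated position, 16 overlapped another gene. Whether reads were counted by strand is not given in the sources used here, so values of overlapping genes are uncertain. Gm15441 (chr3:96555768-96566801) covers Txnip (chr3:96557957-96561857), and the ratio of Txnip to Gm15441 counts stayed between 4.27 and 6.29 over 48 libraries. Ak3l2-ps resembles Ak4 by name, and the ratio of Ak4 to its counts was 16.9 to 42.8. Both pairs are treated as uncertain and may each be 1 signal.

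Promoter windows of RefSeq, 250 bases before to 50 bases after a start site, were found for 33 members. On both strands 10 motifs were searched, and all 10 were picked with the members and their values known, so the counts are descriptions without a test. CACGTG (the E-box) was in 9.09% of members and 11.2% of the genes of the table, CCAAT in 42.4% and 43.3%, AGGTCA in 18.2% and 15.3%, TGTTTAC (the forkhead core) in 6.06% and 3.14%, and TGACG, which overlaps TGACGTCA and TGACGCAA, in 30.3% and 32.7%. TGACGTCA, TGACTCA, TGACGCAA and CGCTACTG were in 0 of 33 member windows and in 3.31%, 4.48%, 0.915% and 0.642% of the table's genes. TGATGCAA, the element that ATF and C/EBP proteins bind in amino acid response genes, was in 3 members (Atf3, Igsf23 and Jdp2; 9.09%) and in 0.714% of the table's genes, 0.815% of bound genes that were not raised and 1.42% of raised genes that were not bound. The stretches of Atf3 and Jdp2 are shown because both encode bZIP proteins of the family that binds such elements, with the motif, or its reverse complement in Atf3, in capitals:
Atf3, chr1:191183400-191183479, minus strand: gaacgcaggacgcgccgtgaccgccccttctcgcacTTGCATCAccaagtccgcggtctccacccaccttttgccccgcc
Jdp2, chr12:85599347-85599415, plus strand: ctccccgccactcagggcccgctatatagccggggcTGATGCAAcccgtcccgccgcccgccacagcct
The motif lay 110 to 103 bases before the start in Atf3 and 33 to 26 bases before 1 annotated start in Jdp2.

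Among metabolic and redox genes, Txnip, which binds and inhibits thioredoxin and limits glucose uptake, was at 489, 697 and 960 CPM (lowest, median and highest of 6) in Upf1 knockout inputs, against 208, 284 and 380 in HA-Tnrc6a inputs and 133, 163 and 191 in Ago2 knockout inputs. Its IPs held 2380, 3653 and 5053 CPM in HA-Tnrc6a cells, 1995, 2176 and 2848 in Ago2 knockout cells and 6366, 9248 and 13270 in Upf1 knockout cells, while untagged IPs held 350.5, 411 and 578. The Upf1 knockout libraries lay above all others in each fraction, which the rule favours for the inputs. Slc25a30, a mitochondrial carrier, was at 36.7, 45.1 and 59.7 CPM in Upf1 knockout inputs and 18.9, 20.2 and 26.0 in HA-Tnrc6a inputs. Slc48a1, a heme transporter, had IP levels of 116, 151 and 187 CPM in HA-Tnrc6a cells against 7.98, 10.97 and 12.3 in untagged cells. Atp6v0e2, a subunit of the proton-pumping V-ATPase, was at 17.9, 21.4 and 24.2 CPM in Upf1 knockout inputs and 7.01, 8.62 and 10.9 in HA-Tnrc6a inputs. These did not overlap, which the rule favours.

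Among signalling genes, Rasl11b, a small GTPase of the Ras family, was at 15.1, 16.7 and 18.6 CPM in Upf1 knockout inputs and 6.06, 6.66 and 7.47 in HA-Tnrc6a inputs. Its IPs held 42.4, 53.8 and 69.1 CPM in HA-Tnrc6a cells and 78.8, 95.6 and 125 in Ago2 knockout cells. They held 103, 130 and 156.5 in Upf1 knockout cells and 6.34, 7.23 and 8.78 in untagged cells. All tagged groups lay above the untagged IPs, which the rule favours for HA-Tnrc6a cells. Camk2n1, an inhibitor of calcium/calmodulin-dependent kinase II, held 333, 505 and 607 CPM in the IPs of Upf1 knockout cells, 186, 232 and 318 in those of HA-Tnrc6a cells and 98.5, 140 and 201 in those of Ago2 knockout cells. Smad6, an inhibitory Smad of BMP signalling, was at 7.16, 8.72 and 10.3 CPM in Upf1 knockout inputs, 3.06, 4.70 and 7.18 in HA-Tnrc6a inputs and 6.07, 9.38 and 12.3 in Ago2 knockout inputs. For Smad6 the Upf1 and Ago2 knockout inputs overlapped in columns 1 to 3, and the Ago2 knockout inputs lay higher in columns 4 to 6.

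Transcription factors included Atf3 and Jdp2, both bZIP repressors, and Zbtb7b, a zinc finger factor that directs CD4 T cell fate. Atf3 was at 5.93, 8.36 and 12.3 CPM in Upf1 knockout inputs and 2.37, 3.54 and 4.38 in HA-Tnrc6a inputs. Jdp2 was at 13.8, 21.9 and 28.7 CPM and 8.14, 9.07 and 10.3 CPM. Zbtb7b was at 23.2, 34.3 and 41.6 CPM and 12, 13.7 and 17.9 CPM. None of these 3 overlapped between the 2 genotypes, which the rule favours, since it chose members on these inputs. Hspb6, a small heat shock protein, was at 20.1, 20.6 and 23.0 CPM in Upf1 knockout inputs against 7.88, 8.73 and 10.7 in HA-Tnrc6a inputs. Lmbr1, the member with the highest enrichment, gave HA-Tnrc6a IPs of 107, 119 and 145 CPM and untagged IPs of 5.43, 7.48 and 8.49 CPM. The plot of CPM by library shows 8 members.

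The named members that follow had other known roles. Cry2, a repressor of the circadian clock, had the order seen for Txnip. It was lowest in Ago2 knockout inputs (20.7, 25.0 and 27.4 CPM), intermediate in HA-Tnrc6a inputs (32.1, 32.7 and 36.1) and highest in Upf1 knockout inputs (52.8, 56.7 and 59.0). These did not overlap, which the rule favours for Upf1 knockout over HA-Tnrc6a inputs. Ubash3a, a regulator of T cell receptor signalling, had the same order, at 7.60, 9.41 and 10.5, then 10.3, 13.9 and 17.3, then 26.0, 27.7 and 29.2 CPM. Its lower groups overlapped slightly over all columns but not within either column set. Atg14, which directs a lipid kinase complex to autophagosomes, was at 50.2, 55.1 and 56.4 CPM in Upf1 knockout inputs against 27.9, 30.8 and 34.1 in HA-Tnrc6a inputs. Its IPs held 99.8, 105 and 117 CPM in Upf1 knockout cells and 85.3, 95.4 and 104 in HA-Tnrc6a cells. These ranges overlapped over all columns but not within either column set. The higher input was not matched by an IP level of the same ratio. Igsf23, of low abundance, was at 4.62, 5.51 and 6.88 CPM in Upf1 knockout inputs against 1.21, 1.70 and 3.03. Fam43a was at 27.9, 41.8 and 54.2 CPM in Upf1 knockout inputs and 16.3, 24.4 and 31.9 in HA-Tnrc6a inputs. These groups overlapped over all columns but not within either column set.

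**Figure D2:**
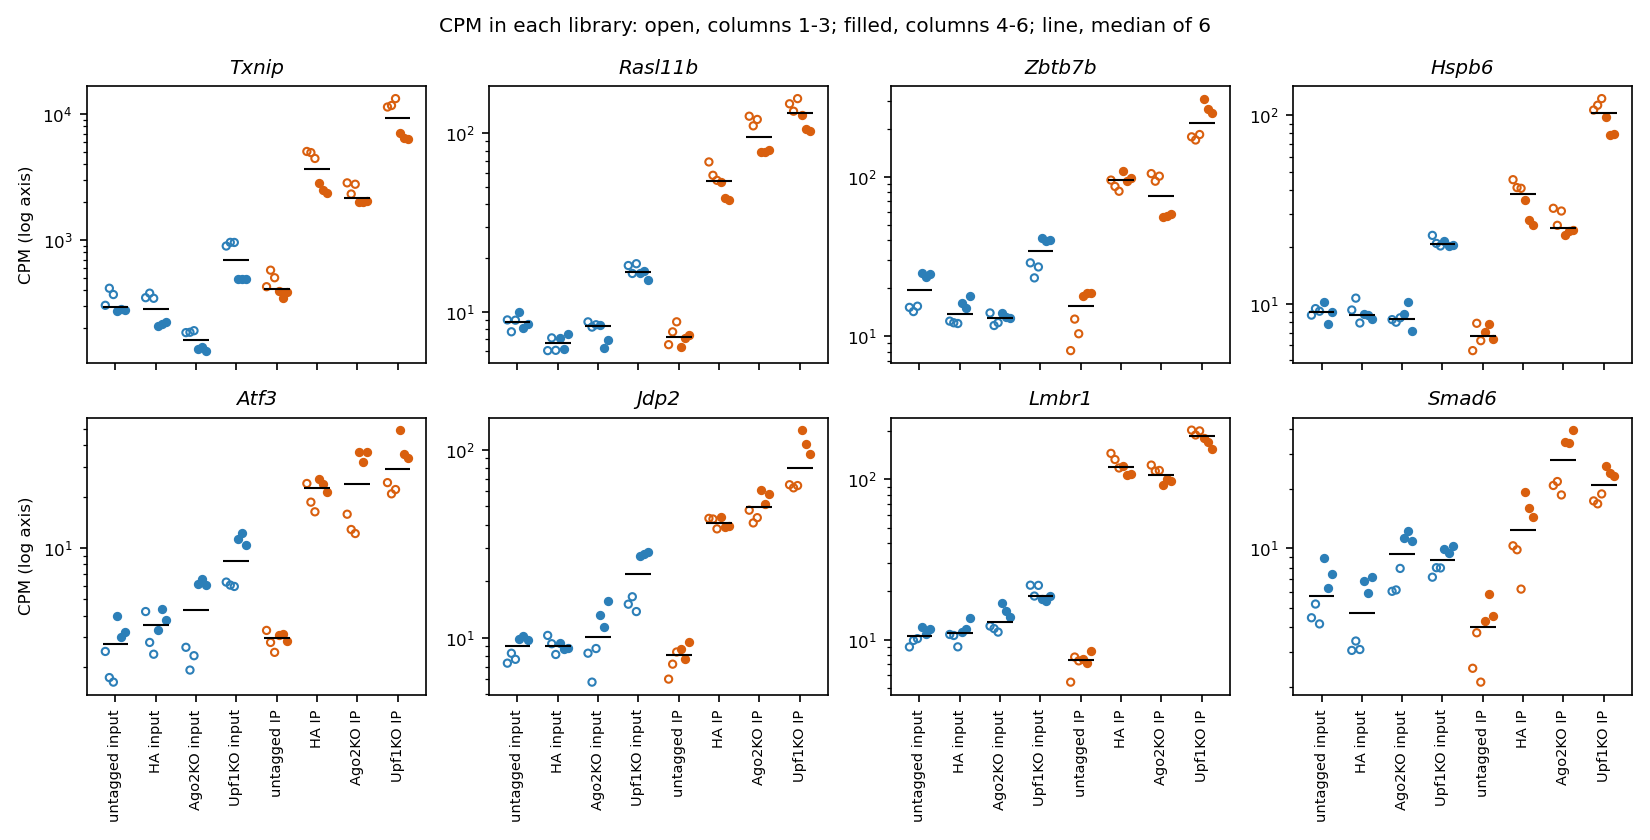
CPM (log axis) of 8 members in each of 48 libraries, inputs in blue and IPs in orange, with columns 1 to 3 open, columns 4 to 6 filled, and a line at the median of 6. Upf1 knockout inputs lie above HA-Tnrc6a inputs in every panel, except that for Smad6 the ranges over all columns touch (7.16 against 7.18 CPM). Within each column set the Smad6 ranges are apart. Untagged IPs stay near their inputs.

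Across the members, the Upf1 knockout inputs lay above the HA-Tnrc6a and untagged inputs of the same column set for 41 of 41 genes, which the rule favours, and above all other inputs, Ago2 knockout included, for 39 of 41 (95.1%). The same order held for 92.8% of raised genes that were not bound and 13.1% of all genes, so the members' share was near that of raised genes in general. The exceptions were Smad6 and Fam43a. In bulk lysates, more RNA per cell and more cells that hold the RNA cannot be told apart.

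Recovery in Ago2 knockout cells was measured on 12 libraries that the rule did not use. All 41 members were higher in IP than in input (edgeR quasi-likelihood test, Benjamini-Hochberg adjusted p under 0.05), where 36% of all genes tested were higher. The contrast subtracts no untagged control. It was not particular to the members: 14 of 14 known targets of embryonic stem cell microRNAs or Trim71 were higher. Of 35 silencing machinery genes, 28 were higher and 4 lower. The median log2 difference was 2.15, with a range of 1.07 to 4.13, against -0.06 for all genes. Txnip (4.13 ± 0.06, SE), Gm15441 (3.98 ± 0.06) and Rasl11b (3.91 ± 0.07) had the largest differences, and Hsdl1 (1.07 ± 0.06), Ubash3a (1.13 ± 0.08) and Cry2 (1.23 ± 0.06), a circadian repressor, the smallest. Adjusted p for these 6 ran from 3.3e-31 for Txnip to 1.2e-14 for Ubash3a. No member was lower, where 38.3% of all genes were, and the same 41 were called in columns 1 to 3 alone (33.9% of all genes higher, 33% lower) and in columns 4 to 6 alone (36.7% higher, 34.9% lower). On the log2(CPM + 1) scale the members' median IP-over-input was -0.32 in untagged, 1.74 in HA-Tnrc6a, 1.78 in Ago2 knockout and 1.55 in Upf1 knockout cells.

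IP levels in Upf1 knockout cells were then compared with those in Ago2 knockout cells, again on libraries outside the rule, although the Upf1 knockout IPs came from the lysates whose inputs it used. In the Upf1 knockout IPs 36 members were higher, where 30.1% of all genes were, and 1 was lower, where 27.1% were. The median log2 difference was 0.75, against 0.01 for all genes. No input was subtracted, and members were chosen for high Upf1 knockout inputs, so the choice favours higher IP levels here. It was not particular to bound genes. Of 18 snoRNA host genes, 0 of them bound, 15 were higher and 1 lower, with a median of 0.96. Gm15441 (1.99 ± 0.08), Txnip (1.97 ± 0.08) and Hspb6 (1.89 ± 0.07) differed most, with adjusted p of 6.1e-16, 1.1e-15 and 6.6e-16. Hspb6 IPs held 78.5, 102 and 122 CPM in Upf1 knockout cells and 23.0, 25.2 and 31.99 in Ago2 knockout cells. Smad6 was lower (-0.37 ± 0.07, adjusted p = 5.8e-05), at 16.8, 20.9 and 25.9 CPM against 18.6, 27.8 and 39.4. Atg14 (-0.10 ± 0.06), an autophagy factor, Tbc1d22a (-0.09 ± 0.06), Rdh13 (0.05 ± 0.07) and Cdk2ap2 (0.06 ± 0.07) were not called, with adjusted p of 0.16, 0.2, 0.56 and 0.49. Cdk2ap2 is outside the naming rule and was named after its value was seen. Atg14 was called lower without Ago2 knockout IP 2 (-0.13) or Upf1 knockout IP 4 (-0.15), and Tbc1d22a without the latter (-0.18). In columns 1 to 3 alone 34 members were higher (23.1% of all genes) and 0 lower (19.6%), and in columns 4 to 6 alone 35 were higher (25.7%) and 1 lower (24.6%).

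**Figure D3:**
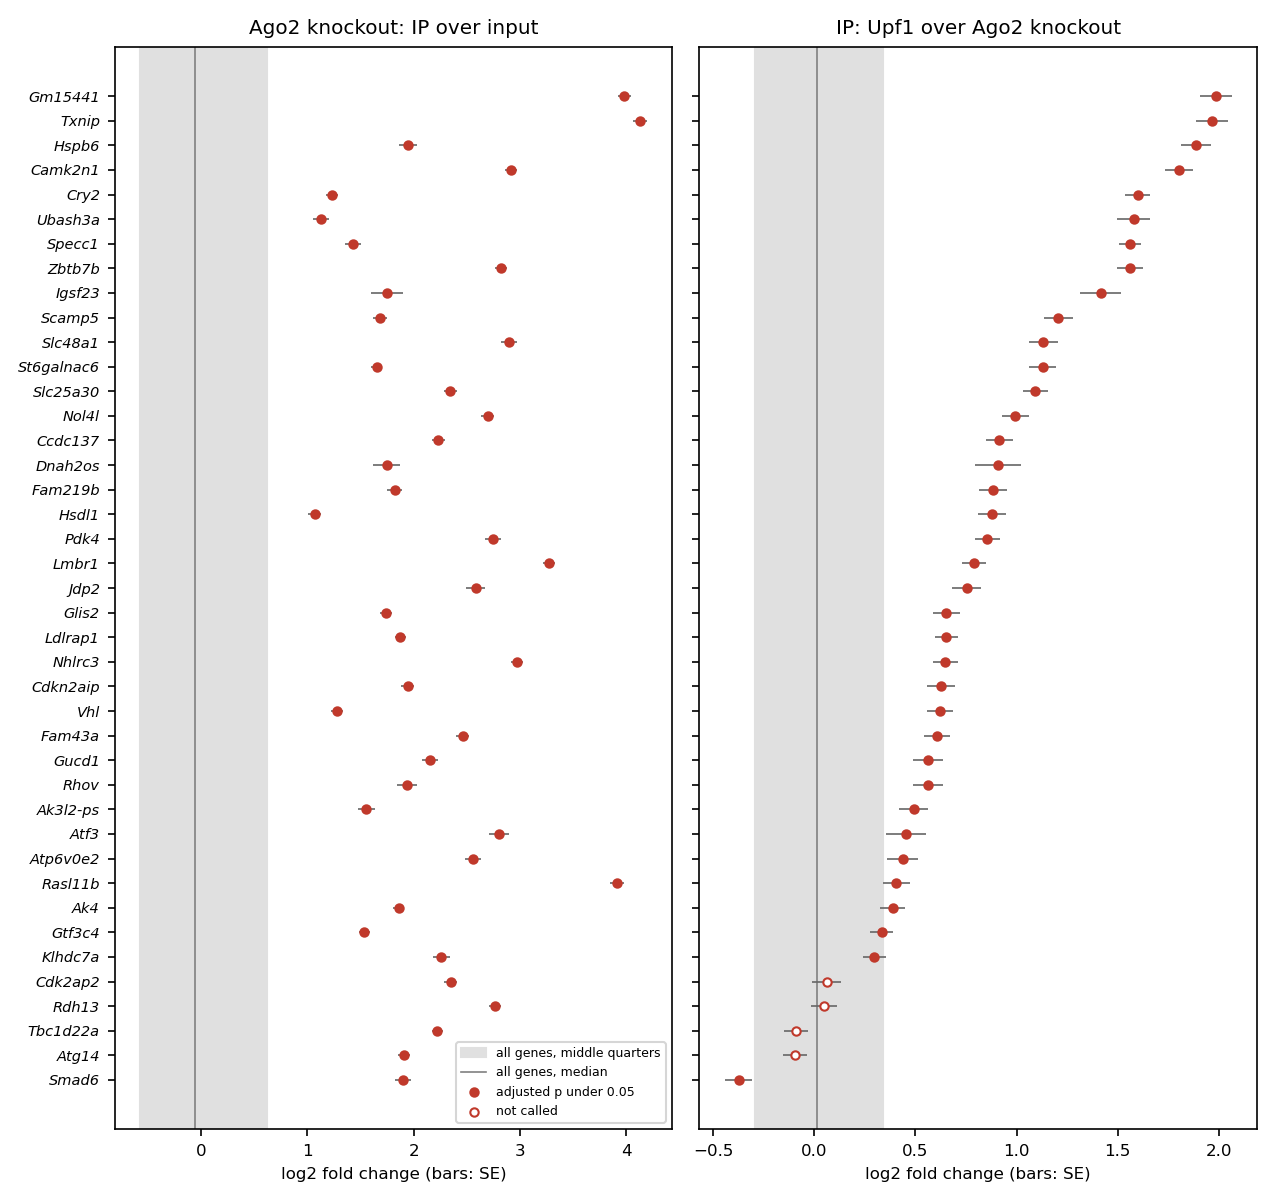
Log2 fold changes with SE of the 41 members in 2 comparisons of libraries the rule did not use, sorted by the right panel; the grey band holds the middle 50% of all genes and the line their median. All members exceed the band on the left, and Smad6, at -0.37, is the only called member below 0 on the right. The right panel subtracts no input, so the choice of members favours values above 0 there.

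To read the rule's own contrasts on other libraries, genes were chosen in one column set and measured in the other. Of 62 genes chosen in columns 1 to 3, 60 were higher in Upf1 knockout than HA-Tnrc6a inputs in columns 4 to 6 (26.6% of all genes were) and 1 was lower (24.5%). The lower gene was Lefty1 (-0.61 ± 0.17, adjusted p = 0.0026), a Nodal antagonist, and Camk2n2 (0.13 ± 0.20) was not called; both were named after their values were seen. Of 40 genes chosen in columns 4 to 6, 35 were higher in columns 1 to 3 (24.6%) and 0 lower (23%). The median differences were 0.68 and 0.70 (log2). Enrichment over untagged cells was higher for 62 of 62 and 40 of 40 genes, where 27.4% of all genes were in each set, and lower for 0, where 20.8% were in columns 1 to 3 and 30% in columns 4 to 6. Both sets carry the same genotype labels, which do not say whether separate clones were used. They were therefore read as repeats of the experiment and not of the genotypes.

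Recovery, meaning IP over input, was next compared between Upf1 knockout and HA-Tnrc6a cells. With all libraries of a column set in the fit, most of the genes called were lower. In columns 4 to 6, 6 of the 62 genes were lower (0.481% of all genes were) and 1 was higher (1.46%). Their median was -0.06, against 0.04 for all genes. In columns 1 to 3, 4 of the 40 were lower (0.775%) and 0 higher (0.0909%), with a median of -0.10, against -0.05 for all genes. Atp6v0e2 was lower in both (-0.94 ± 0.15, adjusted p = 0.0027, and -1.05 ± 0.15, adjusted p = 0.00026), as was Ak4, an adenylate kinase of mitochondria (-0.54 ± 0.10, adjusted p = 0.0069, and -0.68 ± 0.11, adjusted p = 0.0012), named after its values were seen. These counts were unstable, and in columns 4 to 6 so was their direction. The 7 calls in columns 4 to 6 became 16 without HA-Tnrc6a IP 4, with 8 higher, 8 lower and a median of 0.06. They became 12 without Upf1 knockout IP 4 (1 higher and 11 lower). They fell to 3 or 4 without any one of HA-Tnrc6a inputs 4, 5 and 6 or Upf1 knockout inputs 4 and 5. The same held without HA-Tnrc6a IP 5 or Upf1 knockout IP 5. The 4 calls in columns 1 to 3 became 11 without HA-Tnrc6a IP 3. They fell to 2 without any one of HA-Tnrc6a input 3, Upf1 knockout input 2, HA-Tnrc6a IP 2 and Upf1 knockout IP 2. Without HA-Tnrc6a IP 1 the median in columns 1 to 3 was 0.06. Over all 41 members and 6 columns, 13 were lower (1.57% of all genes) and 0 higher (2.92%), a description only, since the rule used these inputs.

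Recovery in Ago2 knockout against HA-Tnrc6a cells moved in both directions. In columns 4 to 6, 7 of 62 genes were higher (7.84% of all genes) and 19 lower (9.64%), and without HA-Tnrc6a IP 4 these became 16 and 18. In columns 1 to 3, 5 of 40 were higher (3.39%) and 4 lower (5.29%), and without HA-Tnrc6a IP 3 these became 1 and 7. The balance of directions thus rested on single libraries. Camk2n1 was lower in both (-1.11 ± 0.11, adjusted p = 7.7e-08, and -0.81 ± 0.15, adjusted p = 0.0011), as were Slc48a1 (-0.74 ± 0.15 and -0.71 ± 0.16) and Nol4l (-0.44 ± 0.10 and -0.51 ± 0.16). Rasl11b was higher in both (0.71 ± 0.14, adjusted p = 0.00098, and 0.53 ± 0.17, adjusted p = 0.049). The 9 calls in columns 1 to 3 fell to between 3 and 5 without any one of HA-Tnrc6a inputs 1, 2 and 3, Ago2 knockout inputs 1, 2 and 3, HA-Tnrc6a IP 2 and Ago2 knockout IPs 1 and 3. Over all 41 members, 5 were higher (9.09% of all genes) and 11 lower (12.3%), again as a description.

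Input levels in Ago2 knockout against HA-Tnrc6a cells moved in both directions. All 8 endoderm markers tested were lower in this contrast (median -2.76, log2), and the part of such cells in the values below was not tested. In columns 4 to 6, 19 of 62 genes were higher (14.5% of all genes) and 12 lower (12.8%), and in columns 1 to 3, 5 of 40 were higher (10.4%) and 8 lower (8.42%). Txnip was lower in both sets (-0.65 ± 0.03, adjusted p = 8.9e-21, and -0.91 ± 0.04, adjusted p = 3.1e-18), so that it fell in Ago2 knockout inputs and was raised in Upf1 knockout inputs. Atp6v0e2 (-0.34 ± 0.10 and -0.66 ± 0.16) and Ubash3a (-0.48 ± 0.10 and -0.62 ± 0.11) were also lower in both. Smad6, chosen in columns 1 to 3, was higher in columns 4 to 6 (0.78 ± 0.10, adjusted p = 5.5e-08). Over the full 41 members, 11 were higher (15.7% of all genes) and 9 lower (15.2%). Ago2 knockout inputs exceeded HA-Tnrc6a inputs for 43.9%, near the 45.2% of all genes, against 65.7% of bound genes that were not raised and 38% of raised genes that were not bound, values that share the HA-Tnrc6a inputs with the rule and carry no test.

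**Figure D4:**
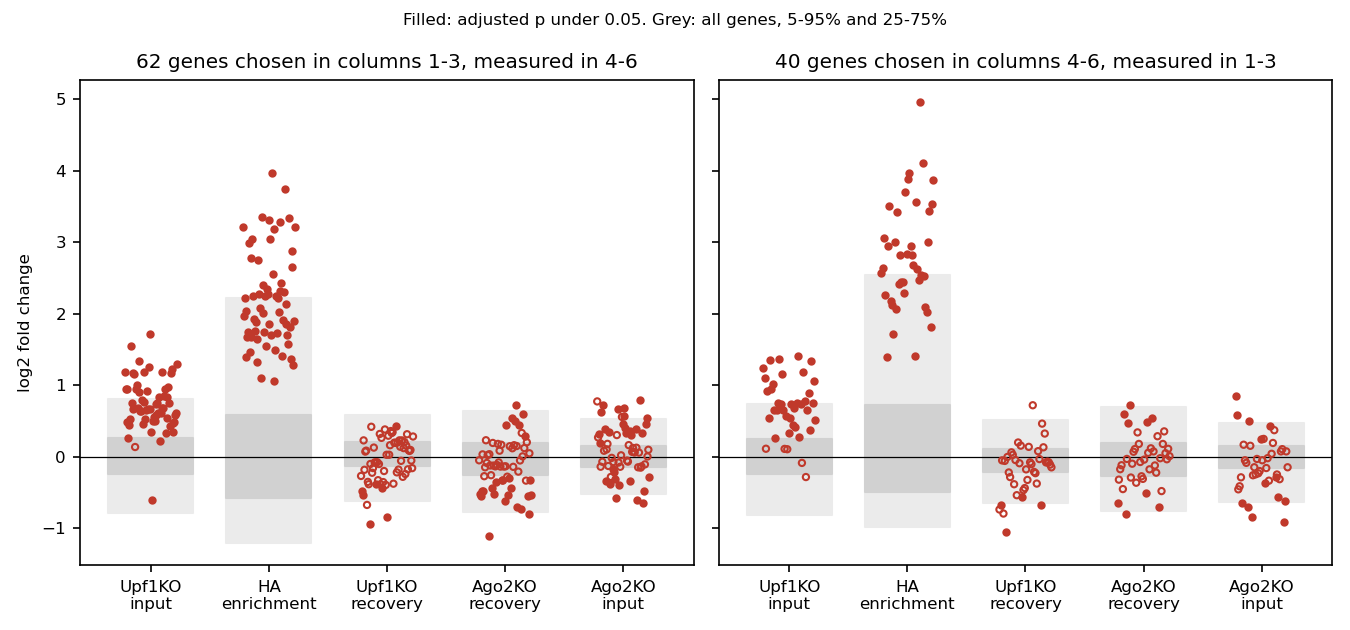
Log2 fold changes of genes chosen in one column set and measured in the other, for 5 comparisons; filled points have an adjusted p under 0.05, and grey boxes hold the middle 90% and 50% of all genes. Input change in Upf1 knockout and enrichment lie above 0 for nearly all genes (60 of 62 and 35 of 40 called higher in the former), and the other 3 comparisons straddle 0.

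The difference between column sets was tested for each contrast. For the Upf1 knockout input change, 4 members were higher in columns 4 to 6 (5.75% of all genes) and 5 lower (5.84%), led by Jdp2 (0.96) and Smad6 (-0.66). For the Ago2 knockout input change, 6 were higher (2.7%) and 2 lower (3.23%), and Atf3 (1.13) and Jdp2 (0.83) were among the higher ones. For IP levels in Upf1 over Ago2 knockout cells, 7 were higher (3.92%) and 1 lower (2.63%). Recovery in Ago2 knockout cells was lower in columns 4 to 6 for 25 members (12.1%) and higher for 0 (8.13%). No member was called for the set difference of enrichment (0.205% of all genes higher, 0.16% lower), of the Upf1 knockout recovery change (0.11% and 0.00501%) or of the Ago2 knockout recovery change (0.115% and 0.08%).

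The lists of related genes placed few members. Of 18 snoRNA host genes, which are known substrates of nonsense-mediated decay, 9 were raised by the input criterion and 0 bound, where 3.17% of all genes were raised and 6.77% bound. Of 26 splicing genes with poison exons, another known class of substrates, 0 were raised and 0 bound. In the fit 10 were higher and 13 lower, where 29.5% of all genes were higher and 29% lower. Counts per gene do not separate transcripts with a poison exon from the others of the gene. Of 24 stress and amino acid response genes, 7 were raised and 5 bound, with Atf3 the only member. Of 14 known targets of embryonic stem cell microRNAs or of Trim71, 11 were bound and 1 raised (Mbnl2), with no member, and of 35 genes of the silencing machinery 16 were bound and 0 raised. Smad6 was the only member among 27 genes of TGF-beta, Nodal and BMP signalling. In these lists the 2 criteria fell mostly on different genes, as they did over all genes, where 3% of bound genes were raised. The counts thus set these lists apart in no such way, and they describe lists chosen with earlier results known.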

How the data were processed

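RNA sequencing of 48 libraries gave 1 table in which the authors deposited raw counts per gene, without normalization; the submitters' processing notes name STAR 2.7.3a, bcl2fastq 2.20 and GRCm38/mm10. The gene length column, in bases, is another value of the deposited table. Columns of the table headed RPKM hold counts over 1 factor per library and were not used. Count precision is limited by library totals of 11471544 to 73845953. Replicates were dishes per the labels' protocols, so p-values measure the spread between dishes.

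The members and lists were chosen with earlier results of these data known. Contrasts were fitted on all genes with edgeR 4.0.16 (limma 3.58.1, R 4.3.3) using quasi-likelihood, TMM and filterByExpr (minimum count 10), with 1 coefficient per group and column set, averaged over sets. All 41 members passed the filter. Calls used a Benjamini-Hochberg adjusted p under 0.05, two-sided. The fits were tested on simulated data. Members named were the 10 highest in each rule value (log2 input level of at least 3), the 3 just inside each threshold, those on lists, and the 3 largest and 3 smallest in each test on libraries the rule did not use. Same-numbered libraries did not all deviate together (mean correlation 0.068, from -0.293 to 0.674, over 168 pairs; for input and IP of 1 genotype 0.104, from -0.0609 to 0.509, over 24), so the numbers were not taken as pairs. Alternatives included DESeq2 1.42.0, other scalings, no filter, a replicate block and leaving out each library. Lists that the text does not name are not reported here.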

Additional observations from a re-analysis of the deposited data

Results flagged for a closer look

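Closer looks were limited to the 25 named members. The test of the difference between columns 4 to 6 and columns 1 to 3 singled out most of them. For the Upf1 knockout input change, 4 of 41 members were called higher in columns 4 to 6 (5.75% of all genes) and 5 lower (5.84%). Among named members the differences were 0.96 for Jdp2 and 0.49 for Ubash3a, and -0.43 for Lmbr1, -0.66 for Smad6, -0.16 for Txnip and -0.19 for Gm15441 (log2). Jdp2 inputs held 15.1 ± 1.37 CPM (SD, n = 3) in columns 1 to 3 and 27.9 ± 0.702 in columns 4 to 6 in Upf1 knockout cells, and 9.24 ± 1.07 and 8.995 ± 0.341 in HA-Tnrc6a cells.

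For the Ago2 knockout input change, the differences were 1.13 for Atf3, 0.83 for Jdp2, 0.26 for Txnip and 0.26 for Gm15441. Atf3 inputs of Ago2 knockout cells held 2.28 ± 0.347 CPM in columns 1 to 3 and 6.25 ± 0.276 in columns 4 to 6 (SD, n = 3), so that Atf3 lay below the HA-Tnrc6a mean (3.12) in the first set and above it (3.82) in the second.

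For IP levels in Upf1 over Ago2 knockout cells, the differences were 1.58 for Zbtb7b, 0.54 for Jdp2, 0.64 for Nol4l, 0.80 for Dnah2os and -1.10 for Igsf23. Zbtb7b IPs of Ago2 knockout cells fell from 99.8 ± 5.53 to 57.1 ± 1.25 CPM between the sets while those of Upf1 knockout cells were at 177 ± 7 and 276 ± 29.5.

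Recovery in Ago2 knockout cells was lower in columns 4 to 6 for 25 of 41 members, where 12.1% of all genes were lower, and higher for none. Among named members the differences were -1.01 for Zbtb7b, -0.85 for Atp6v0e2, -0.77 for Lmbr1, -0.72 for Dnah2os, -0.65 for Nhlrc3, -0.60 for Nol4l, -0.58 for Atg14, -0.57 for Jdp2, -0.57 for Slc48a1, -0.51 for Hspb6, -0.48 for Rdh13, -0.46 for Camk2n1, -0.46 for Rasl11b, -0.43 for Slc25a30 and -0.34 for Tbc1d22a. IP depth also differed between the sets, and its part in this was not tested.

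Single libraries stood apart in 3 of the 200 groups of 6 examined: Slc48a1 at 97.5 CPM in 1 Ago2 knockout IP, Rhov at 25.9 CPM in 1 Upf1 knockout IP and Rhov at 2.92 CPM in 1 untagged IP. Chance flags about 1 in 20 groups drawn from a single population. Each group here pools both column sets, whose levels often differed, so that rate need not hold.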

How the results depend on the processing

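The number of members depended on the rule's settings: 35 with TMM scaling (28 of the 41 among them), 58 and 19 with pseudocounts of 0.5 and 4, 62 from columns 1 to 3 alone, 80 and 19 with enrichment limits of 1 and 2, 109 and 15 with input limits of 0.5 and 1, and 36 to 50 when single libraries were left out. Recovery in Ago2 knockout cells was called for 41 members in every alternative; scaling to library totals moved the all-gene median there from -0.06 to -0.34. The Upf1 knockout recovery change had 7 calls in columns 4 to 6, but 3 at an adjusted p under 0.01, 2 at 1.5-fold, 11 with library totals, 11 with DESeq2, 14 with the replicate block and 3 to 16 without single libraries; its 4 calls in columns 1 to 3 became 7 with DESeq2 and 2 to 11 without single libraries. The Ago2 knockout recovery change fell from 26 calls to 7 at 1.5-fold in columns 4 to 6, and from 9 to 5 at 1.5-fold, 3 at an adjusted p under 0.01 and 3 to 8 without single libraries in columns 1 to 3. The Ago2 knockout input change fell from 31 to 8 and from 13 to 6 at 1.5-fold. The cause was not tested. The replicate block moved no other count past 1.5 times. Column numbers were not taken as pairs, and whether they pair the samples is not known. In single column sets, Atf3, Rasl11b and Smad6 were no longer called for IP level (0.23, 0.25 and -0.25), and Rdh13 was (0.22).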
